A study of Mus musculus with 4 samples.

Results

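The antioxidant and NRF2 response genes were 10 named genes followed in mouse pancreatic islet cells: Nfe2l2, Keap1, Hmox1, Nqo1, Gclc, Gclm, Txnrd1, Srxn1, Gpx1 and Sod2. They were chosen by symbol among the 22911 genes that had a named probe on the array, and every probe that mapped to them was taken, which gave 11 probes because Txnrd1 had a pair. Islet cells came from 60-week-old male C57BL/6 mice, 4 littermates by the sample descriptions, and were treated ex vivo for 24 h with 10 μM of MOTS-c, a peptide encoded in the mitochondrial genome, or with the same dose of a scrambled peptide. The arrays were 2 of scrambled-treated cells (replicates 1 and 2) and 2 of MOTS-c-treated cells (replicates 2 and 3), each hybridized with 1 color on an Agilent mouse array. No array of untreated cells or of cells given an added oxidant was analysed here, so every value describes the cells after culture with a peptide.

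NRF2, the protein of Nfe2l2, is a transcription factor that is held at a low level by KEAP1, an adaptor that presents it to a cullin ligase for degradation. When electrophiles or oxidants modify KEAP1, NRF2 accumulates, pairs with a small MAF protein and binds antioxidant response elements near genes for glutathione synthesis, thioredoxin recycling, quinone reduction and heme breakdown. β-cells are known for low activity of several hydrogen peroxide-removing enzymes, which is why this system is often studied in islets.

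The letters of the element are shown for the members that carried them near their start. TGACNNNGC was searched on both strands, and no other motif was searched, in RefSeq promoter windows of assembly GRCm38.p6 that run from 250 bases before to 50 bases after a gene's start. Windows were given for 8 of the 10 genes (10 windows, 3 of them for Txnrd1), while Hmox1 and Gclc had no entry. The letters were found for Nfe2l2, Gclm, Srxn1 and 1 of the 3 Txnrd1 windows. They were not found in the windows of Keap1, Nqo1, Gpx1 and Sod2. Each match is printed 5′ to 3′ on the strand of its gene with 10 bases on either side, and the capitals mark the match.
Nfe2l2: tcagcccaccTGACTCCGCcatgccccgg
Gclm: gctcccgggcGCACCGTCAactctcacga
Txnrd1: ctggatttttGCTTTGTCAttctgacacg
Srxn1: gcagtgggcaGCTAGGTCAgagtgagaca
The Nfe2l2 stretch lies at chr2:75704885-75704913 on the minus strand, with the match starting 240 bases before the start of the gene. The Gclm stretch lies at chr3:122245413-122245441 on the plus strand, and its match, on the opposite strand to the gene, begins 134 bases before the start. The Txnrd1 stretch at chr10:82859104-82859132 (plus strand) holds an opposite-strand match 92 bases before that start, and the Srxn1 stretch at chr2:152105542-152105570 (plus strand) holds one 28 bases after the start. Over all genes with a window, 3781 of 27025 (14.0%) held the letters, and 12.4% of the 32851 windows did. A match describes letters only, and says nothing of binding in islet cells.

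The cells carried the hormone genes of islets at high signal. The log2 signal of the 9 measured β-cell markers of 10, averaged on the linear scale and led by Ins1, Ins2 and Iapp, lay between 16.59 and 16.65 on the 4 arrays. Quantile normalization gives every array the same set of values, which limits how far the brightest probes can differ. Ins1 read 18.13 on both scrambled arrays. The mean is set by the brightest probes and does not show the dimmer markers. Of the 9, the groups did not overlap with MOTS-c higher in 3 and lower in 4, beside 19.8% and 22.7% of all genes. None passed the adjusted threshold. Lower were the glucose transporter gene Slc2a2, at -1.33 ± 0.14 (MOTS-c minus scrambled, log2; limma adjusted p = 0.474), Pdx1 at -0.28 ± 0.13, G6pc2 at -0.19 ± 0.13 and Ins1 at -0.04 ± 0.12. Slc2a2 was read on a dim probe at 1.31 to 2.30 times background, well above it on 3 of the 4 arrays. Higher were Mafa at 0.16 ± 0.12, Nkx6-1 at 0.12 ± 0.13 and Iapp at 0.07 ± 0.12. Ucn3, a marker of mature β-cells, was not well above background. Sst, the delta cell hormone, was highest on scrambled replicate 2, at 17.72 against 17.16 to 17.17 on the other arrays. The labels call the mice male, whereas none of 28 readings of Y-linked probes (7 probes on 4 arrays) was well above background and Xist was detected well above it on each of the 4 arrays, so the library labels and these genes did not match for sex on any array. Between 61.6% and 65.0% of gene spots were well above background. Since the samples hold several cell types, fewer cells of a type and less RNA per cell cannot be told apart in any value below. With 2 arrays a group, an exact permutation test over arrays cannot go below p = 0.333, and the precision is limited by the number of arrays.

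Every array detected all 11 probes well above background, with signals between 24.1 and 1009 times their local background. None passed the test. By limma with Benjamini-Hochberg adjustment, 0 of the 11 probes had an adjusted p under 0.05, and so did 0 of all 35087 probes tested (0%), where the smallest adjusted p was 0.474. None of the 11 reached a 1.5-fold difference. Thus 0 of them had an unadjusted limma p under 0.05 with at least 1.5-fold, beside 3.53% of all probes. At an unadjusted p under 0.05 alone there was 1 member probe, that of Gclc, and 2755 probes in all (7.85%). The methods' t-test, run on the same values, likewise had 1 member probe and 2313 probes in all at that level. The median difference of the 11 probes (MOTS-c minus scrambled, log2) was 0.02, beside 0.01 over all probes, and the median size of the difference without regard to sign was 0.09, beside 0.14. The whole set of probes includes dimmer ones than these 11, and no comparison at like signal was made.

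The spread within groups was unequal among the members. Sod2 replicates differed least and Gpx1 replicates most. Over all probes the median difference between replicates was 0.16 (log2) for scrambled and 0.19 for MOTS-c. Of the 11 probes, 9 read lower on MOTS-c replicate 3 than on MOTS-c replicate 2, beside 56.5% of all probes.

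**Figure D1:**
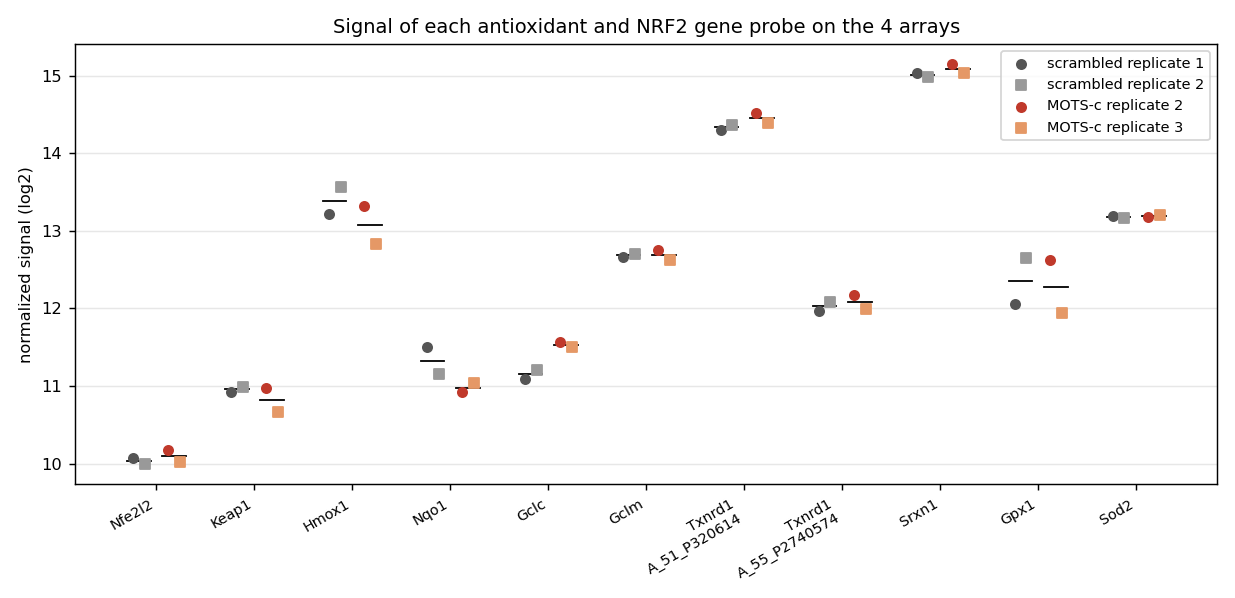
Quantile-normalized log2 signal of each of the 11 probes (x axis, Txnrd1 by its pair of probes) on the 4 arrays, gray for scrambled and red or orange for MOTS-c, with a line at each group mean of 2 arrays. For Gclc each MOTS-c point is above each scrambled point and for Nqo1 below, while Gpx1 and Hmox1 show the widest spread within groups, and heights of different probes cannot be set against each other.

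The sensor and the transcription factor came first. Nfe2l2 had a normalized log2 signal of 10.07 and 9.99 after scrambled peptide, and of 10.18 and 10.02 after MOTS-c. The groups overlapped, with MOTS-c replicate 3 between the scrambled arrays. The difference was 0.07 ± 0.13 (log2, SE, n = 2 per group; 95% interval -0.27 to 0.42, limma adjusted p = 0.929), and it was -0.006 without MOTS-c replicate 2. Keap1, the gene of the adaptor that targets NRF2 for degradation, gave 10.92 and 10.99 on scrambled and 10.97 and 10.67 on MOTS-c arrays. MOTS-c replicate 3 was the low array, and MOTS-c replicate 2 lay among the scrambled ones. The difference of -0.14 ± 0.16 (95% interval -0.55 to 0.27, limma adjusted p = 0.867) became 0.01 without MOTS-c replicate 3. Because NRF2 is controlled largely through the stability of the protein, these transcript levels do not measure its activity.

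Among the genes of glutathione synthesis, the pair of subunits of glutamate-cysteine ligase differed in their values. Gclc encodes the catalytic subunit of this rate-limiting enzyme and Gclm the modifier subunit that makes it more efficient. Gclc gave 11.09 and 11.21 after scrambled peptide, and 11.57 and 11.50 after MOTS-c. Each MOTS-c reading exceeded each scrambled one, by more than the gap within either group. The Gclc signal was 1.31-fold as high with MOTS-c, a log2 difference of 0.38 ± 0.13 (SE, n = 2 per group; 95% interval 0.05 to 0.71). Its unadjusted p was 0.0307 and its limma adjusted p 0.574, so it did not pass the adjusted threshold. Leaving out each array in turn gave differences between 0.33 and 0.44 and unadjusted limma p-values between 0.0669 and 0.153. Over all the alternatives the adjusted p of Gclc ranged from 0.344 to 1.

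Gclm gave 12.66 and 12.71 on scrambled and 12.76 and 12.62 on MOTS-c arrays. The scrambled arrays lay between the MOTS-c arrays. The difference was 0.003 ± 0.13 (95% interval -0.33 to 0.34, limma adjusted p = 0.997), and its sign turned to -0.02 without scrambled replicate 1 and to -0.06 without MOTS-c replicate 2. A within-array contrast of the pair, chosen after the values were seen, was therefore formed by subtracting the Gclm from the Gclc log2 signal, which removes any shift common to both probes of an array. It was -1.57 and -1.50 after scrambled peptide, and -1.19 and -1.12 after MOTS-c. The groups did not overlap, and their difference of 0.38 (group SDs 0.05 and 0.05, n = 2 per group) had an exact two-sided permutation p of 0.333, the smallest that 2 against 2 arrays allows. Only the change of this contrast can be read, since its level mixes the response of different probes.

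The thioredoxin arm was represented by Txnrd1 and Srxn1. Txnrd1 encodes the cytosolic thioredoxin reductase, which uses NADPH to recycle thioredoxin, and Srxn1 encodes sulfiredoxin, which repairs over-oxidized peroxiredoxins. The Txnrd1 probe A_51_P320614 gave 14.31 and 14.36 on scrambled and 14.52 and 14.39 on MOTS-c arrays. The groups did not overlap, but MOTS-c replicate 3 exceeded scrambled replicate 2 by less than the gap between the MOTS-c arrays. The difference was 0.12 ± 0.13 (95% interval -0.21 to 0.45, limma adjusted p = 0.857). The second Txnrd1 probe, A_55_P2740574, gave 11.97 and 12.08 against 12.18 and 12.00. Its groups overlapped, its difference was 0.06 ± 0.14 (limma adjusted p = 0.944), and its sign turned to -0.03 without MOTS-c replicate 2. Both probes thus had MOTS-c replicate 2 as their highest array and scrambled replicate 1 as their lowest.

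Srxn1, with the brightest spots of the set over local background (884 to 1009 times), gave 15.03 and 14.98 on scrambled and 15.15 and 15.03 on MOTS-c arrays. The lower MOTS-c array and the higher scrambled array were equal at this rounding. The difference was 0.09 ± 0.12 (95% interval -0.24 to 0.41, limma adjusted p = 0.905), with a range of 0.03 to 0.14 when each array was left out in turn.

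Nqo1 and Hmox1 are widely used reporters of NRF2 activity, and neither was higher on average in the MOTS-c arrays. Nqo1 encodes a quinone reductase. It gave 11.50 and 11.15 on scrambled and 10.92 and 11.04 on MOTS-c arrays. Each MOTS-c reading was under each scrambled one, with scrambled replicate 1 as the high array. The difference was -0.35 ± 0.17 (95% interval -0.79 to 0.09, unadjusted p = 0.0977, limma adjusted p = 0.704). Leaving out scrambled replicate 1 gave -0.17, and leaving out scrambled replicate 2 gave -0.52.

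Hmox1 encodes heme oxygenase 1, which breaks heme down to biliverdin, iron and carbon monoxide and is also abundant in macrophages that clear red cells. It gave 13.22 and 13.56 on scrambled and 13.33 and 12.84 on MOTS-c arrays. MOTS-c replicate 2 lay between the scrambled arrays, and MOTS-c replicate 3 was the lowest. The difference was -0.31 ± 0.23 (95% interval -0.91 to 0.29, limma adjusted p = 0.796), which ranged from -0.55 without MOTS-c replicate 2 to -0.07 without MOTS-c replicate 3. Of 10 macrophage markers, 4 were measured (C1qa, C1qb, Cd68 and Csf1r), and Adgre1, Ptprc, Lyz2, Mrc1, Aif1 and C1qc were not well above background. The log2 of the mean signal of those 4 was 10.00 and 10.39 on scrambled and 10.04 and 9.77 on MOTS-c arrays. This is the same order of arrays as for Hmox1, with scrambled replicate 2 highest and MOTS-c replicate 3 lowest. That mean was led by Csf1r, the brightest marker, at 11.14 to 11.91, and no other marker had this order. A dimmer Csf1r probe was also highest on scrambled replicate 2, at 8.15. It was lowest on scrambled replicate 1, at 7.83, against 7.95 on MOTS-c replicate 3. The 4 markers did not move alike, since C1qa was highest on scrambled replicate 1, with a difference of -0.67 ± 0.20, while Csf1r had a difference of -0.21 ± 0.29. The part of macrophage RNA in the Hmox1 values was not tested.

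Gpx1 and Sod2 are antioxidant enzymes that are less tied to NRF2. Gpx1 encodes the glutathione peroxidase of the cytosol and mitochondria. It gave 12.06 and 12.65 on scrambled and 12.62 and 11.94 on MOTS-c arrays. In each group 1 array was high (scrambled replicate 2 and MOTS-c replicate 2) and 1 was low, with SDs of 0.42 and 0.48. The difference of -0.07 ± 0.32 (95% interval -0.91 to 0.77, limma adjusted p = 0.975) became 0.22 without scrambled replicate 2 and 0.27 without MOTS-c replicate 3, so no direction can be given. Of 6 endothelial markers, 3 were measured, and Cdh5, Kdr and Tie1 were not well above background. Plvap, the brightest of the 3, gave 10.57 and 10.98 on scrambled and 10.93 and 10.64 on MOTS-c arrays. It was high on the same arrays as Gpx1, but lowest on scrambled replicate 1, whereas Gpx1 was lowest on MOTS-c replicate 3. The log2 mean signal of the 3 markers was 9.34 and 9.66 against 9.58 and 9.32, in the order of Gpx1. Neither Esam nor Pecam1 had that order. Hmox1, Csf1r and the macrophage marker mean (10.00 and 10.39 on scrambled, 10.04 and 9.77 on MOTS-c arrays) also had the order of Gpx1. The part of endothelial or macrophage RNA in the Gpx1 values was not tested.

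**Figure D2:**
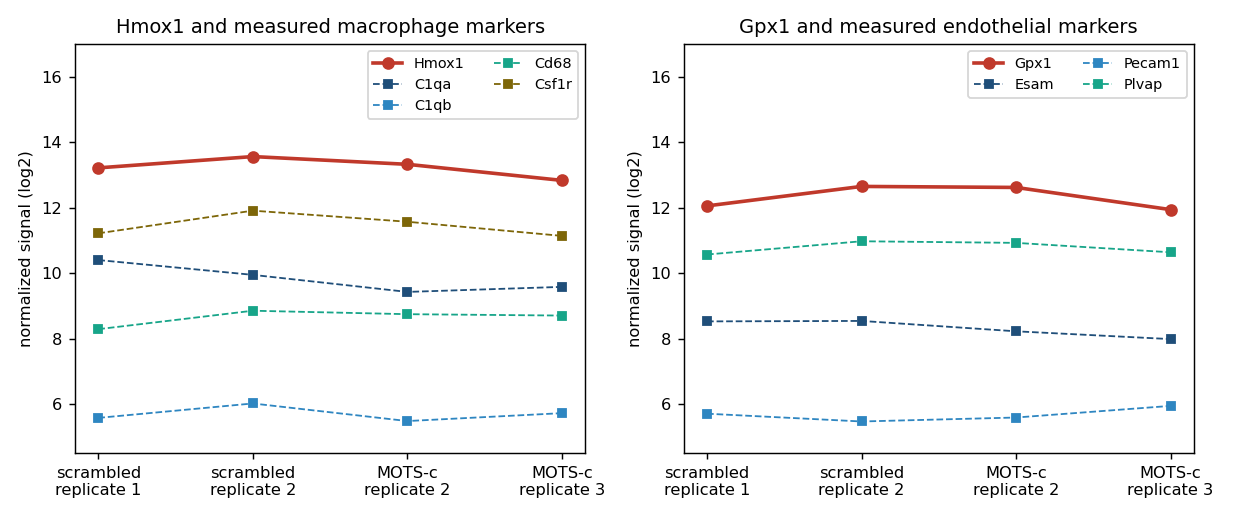
Normalized log2 signal on the 4 arrays (x axis) of Hmox1 with the 4 measured macrophage markers (left) and of Gpx1 with the 3 measured endothelial markers (right), lines joining the readings of 1 probe. Csf1r peaks with Hmox1 on scrambled replicate 2 (11.91 and 13.56) and Plvap is high with Gpx1 on scrambled replicate 2 and MOTS-c replicate 2, whereas C1qa and Pecam1 take other courses.

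Sod2, the mitochondrial manganese superoxide dismutase, varied least of all members. It gave 13.19 and 13.17 on scrambled and 13.18 and 13.21 on MOTS-c arrays. The groups overlapped and the 4 readings spanned 0.04. The difference was 0.02 ± 0.12 (95% interval -0.29 to 0.33, limma adjusted p = 0.987), the SE being larger than the spread of its own arrays because limma moderates it with that of all probes. Scaling by the 75th percentile instead of by quantiles gave -0.01.

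Across the set, each MOTS-c reading exceeded each scrambled one for 3 of the 11 probes (Gclc, 1 Txnrd1 probe and Srxn1; 27.3%), beside 19.4% of all probes. They were all under the scrambled ones for 1 probe (Nqo1; 9.09%), beside 18.6% of all probes. A single probe is 9.09% of the set, and no test of these shares was made. With scaling by the 75th percentile instead of by quantiles, the groups of that Txnrd1 probe and of Srxn1 overlapped. Those of Gclc and Nqo1 stayed apart. The 95% interval of 7 of the 11 probes lay wholly within 1.5-fold in either direction, as did that of 50.2% of all probes, which include dimmer ones. For Hmox1, Nqo1, Gclc and Gpx1 the interval reached past 1.5-fold, so a difference of that size lay within the error at this number of arrays.

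**Figure D3:**
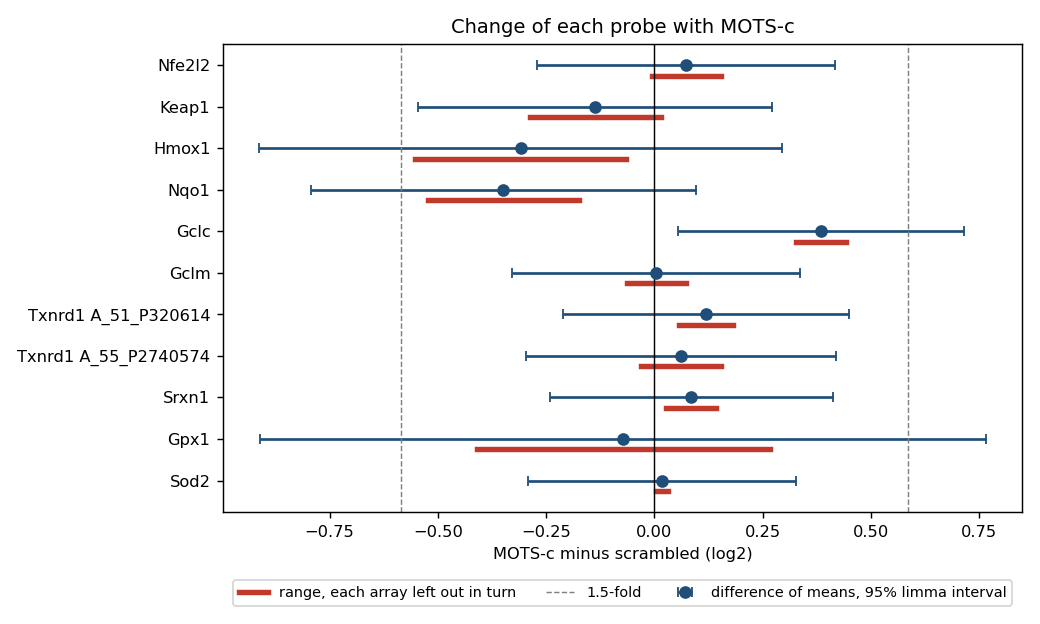
Difference between MOTS-c and scrambled (x axis, log2) for each of the 11 probes (y axis), with points at the difference of means, blue bars for the 95% limma interval, red bars for the range when each of the 4 arrays was left out in turn, and dashed lines at 1.5-fold. The interval of Gclc (0.05 to 0.71) alone among the 11 excludes 0, before adjustment over probes, and the intervals of Hmox1 and Gpx1 are the widest.

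The rest of the pathway was followed through 92 further genes in 8 lists, each by its brightest probe. A probe was present for 91 of them, and 81 passed the filter on dim probes. None had a limma adjusted p under 0.05, while 5 (6.17%) had an unadjusted p under 0.05, beside 8.61% of all genes. At an unadjusted limma p under 0.05 with at least 1.5-fold, 0 of the 81 were higher with MOTS-c, beside 0.995% of the 15470 genes measured. By the same rule 3 of the 81 were lower (Maff, Gpx2 and Gsta2; 3.70%), beside 3.01% of all genes. These 3 became 1 without scrambled replicate 1 (Gsta2), 6 without MOTS-c replicate 2 and 0 by the methods' t-test. The groups did not overlap for 16 genes that were higher (19.8%, beside 19.8% of all genes) and 20 that were lower (24.7%, beside 22.7%). The median difference over the 81 was -0.004 (log2), beside -0.002 over all genes.

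Among 13 regulators and partners of NRF2, 12 were measured, 1 was lower by the unadjusted rule (beside 3.01% of all genes) and the median difference was 0.02. Maff, a small MAF protein that can pair with NRF2, gave 10.64 and 10.77 on scrambled and 10.34 and 9.70 on MOTS-c arrays. Both MOTS-c arrays lay below, MOTS-c replicate 3 by the wider margin. The difference was -0.69 ± 0.24 (unadjusted p = 0.0401, limma adjusted p = 0.608), and it was -0.37 without MOTS-c replicate 3 and -1.01 without MOTS-c replicate 2. Nfe2l3, a relative of NRF2, had a difference of 0.43 ± 0.15 (limma adjusted p = 0.593) on a dim probe at 2.69 to 3.28 times background. Under the normexp background correction it was 0.17, and its second probe gave 0.33 ± 0.16. Cul3, the cullin of the KEAP1 ligase, had a difference of 0.43 ± 0.20 (limma adjusted p = 0.700), and Btrc, of another ligase that acts on NRF2, had -0.24 ± 0.16 (limma adjusted p = 0.774). The second Btrc probe gave 0.02 ± 0.15.

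Glutathione peroxidases and transferases were the list with the largest downward values. Of its 25 genes 18 were measured, 2 were lower by the unadjusted rule (3.01% of all genes were), 0 were higher (0.995% of all genes), and the median difference was -0.05. Gpx2, a glutathione peroxidase best known from the gut epithelium, gave 13.00 and 12.54 on scrambled and 12.06 and 11.70 on MOTS-c arrays. Every MOTS-c array lay below every scrambled array. The difference was -0.89 ± 0.23 (0.540-fold; unadjusted p = 0.0126, limma adjusted p = 0.534), and it ranged from -1.12 without scrambled replicate 2 to -0.66 without scrambled replicate 1. Gsta2, an alpha-class glutathione transferase, gave 7.24 and 7.34 on scrambled and 6.71 and 6.36 on MOTS-c arrays, at 3.25 to 6.50 times background. Its difference was -0.75 ± 0.17 (unadjusted p = 0.00771, limma adjusted p = 0.509), but under the normexp background correction it was -0.43. Transferase genes of a class are close in sequence, so the probe may also have read a relative. On the upper side, Gstk1 had a difference of 0.32 ± 0.13 (limma adjusted p = 0.680) and Gsto1 of 0.23 ± 0.14. The acinar marker Cela1, which was low on the same arrays, had a difference of -0.76 ± 0.16, and the mean signal of the acinar list (4 of 7 measured, with Cpa1, Prss2 and Pnlip not well above background), carried almost wholly by Cela1, read 9.84 and 9.97 on scrambled and 9.34 and 9.03 on MOTS-c arrays. The dim other markers did not move alike, with differences of -0.42 ± 0.29 for Cela2a, -0.14 ± 0.18 for Cel and 0.33 ± 0.17 for Ctrb1. The part of acinar RNA in Gpx2, Gsta2 and Nqo1 was not tested.

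All 10 listed genes of glutathione synthesis and recycling other than the ligase subunits were measured, and 0 passed the unadjusted rule in either direction. The groups did not overlap with MOTS-c lower in 6 of them and with MOTS-c higher in 1, beside 22.7% and 19.8% of all genes, and the median difference was -0.10. No test of this count was made. The exception was Gss, glutathione synthetase, which acts in the step after the ligase and gave 12.31 and 12.47 against 12.59 and 12.72. Its difference was 0.26 ± 0.14 (limma adjusted p = 0.723), and its second probe gave 0.22 ± 0.12. Chac2 had a difference of 0.15 ± 0.21. At the other end, Glrx, a glutaredoxin, had -0.27 ± 0.14 and Chac1, an enzyme that degrades glutathione, had -0.24 ± 0.12.

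Thioredoxins and peroxiredoxins (10 of 10 measured) had 0 genes past the unadjusted rule, and a median of 0.03. Txnrd3, a thioredoxin reductase related to Txnrd1, gave 8.96 and 9.11 on scrambled and 9.63 and 9.32 on MOTS-c arrays. Its groups did not overlap. The difference was 0.44 ± 0.16 (unadjusted p = 0.0473, limma adjusted p = 0.626), and it was 0.28 without MOTS-c replicate 2. The mitochondrial reductase gene Txnrd2 had -0.23 ± 0.12, and Prdx3, the mitochondrial peroxiredoxin, -0.26 ± 0.14, while Prdx1 had 0.12 ± 0.13.

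The other lists held no gene past the unadjusted rule. For superoxide dismutases and catalase (4 of 4 measured, median -0.02) the largest values were 0.11 ± 0.14 for Cat and -0.10 ± 0.15 for Ccs, the copper chaperone of Sod1, and in no gene of the list were the groups apart. The second Ccs probe gave 0.07 ± 0.14. For the enzymes that supply NADPH (7 of 8 measured, median -0.01), Pgd of the pentose phosphate pathway had 0.14 ± 0.13 and the mitochondrial Idh2 had -0.23 ± 0.14. For heme and iron handling (7 of 7 measured, median 0.04), 6 of 7 genes had positive values, led by the ferritin heavy chain gene Fth1 at 0.14 ± 0.12, and Blvra, a biliverdin reductase, had -0.03 ± 0.13. The second Blvra probe gave 0.10 ± 0.14. Ferritin genes have many near-identical pseudogene copies, which leaves the Fth1 reading uncertain as to its source. For detoxification targets (13 of 15 measured, median 0.005), Ptgr1 had 0.24 ± 0.17 and Cbr3 0.18 ± 0.13, while Osgin1 had -0.32 ± 0.16 and the dim transporter probe of Abcc3, at 1.69 to 2.62 times background, had -0.70 ± 0.35.

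**Figure D4:**
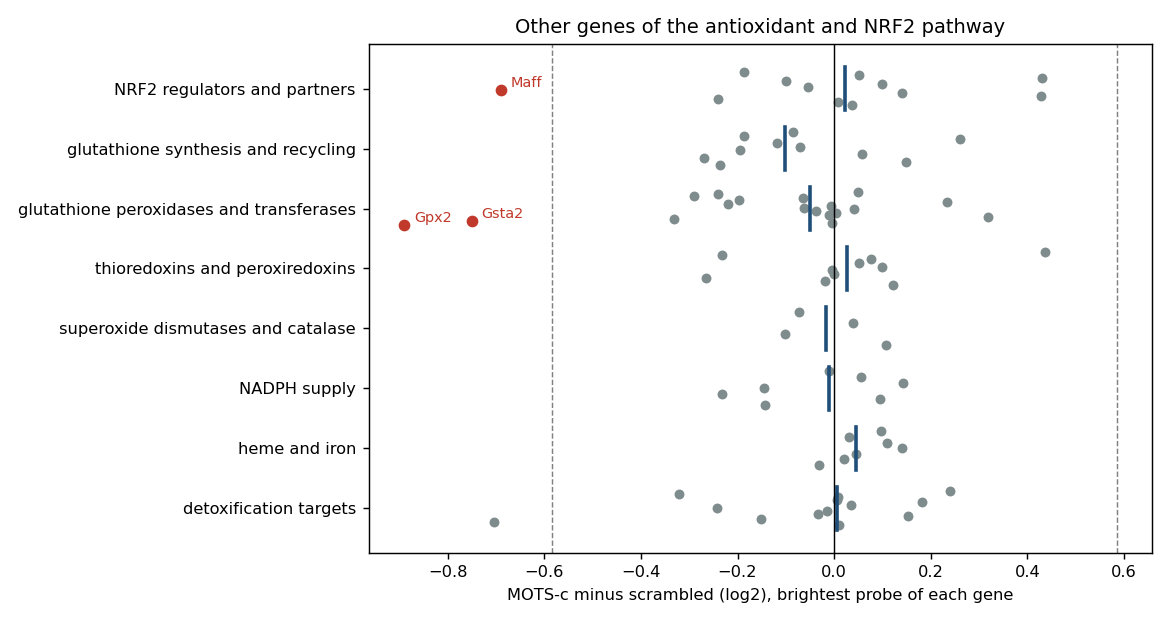
Difference between MOTS-c and scrambled (x axis, log2) of the 81 measured pathway genes in 8 lists (y axis), each point the brightest probe of a gene, with a blue line at each list's median, dashed lines at 1.5-fold and red points for genes at an unadjusted p under 0.05 with at least 1.5-fold. The 3 red points (Maff, Gpx2, Gsta2) all lie to the left, the list medians lie between -0.10 and 0.04, and no gene passes the adjusted threshold.

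The letters of the antioxidant response element were also counted for the wider pathway. They were present in a window of 15 of the 77 pathway genes that had one (19.5%), beside 14.0% of all genes. The differences of these matching genes are not listed here. Among the members, the 4 genes with a match (Nfe2l2, Gclm, Txnrd1 and Srxn1) had differences between 0.003 and 0.12, and the 4 without one (Keap1, Nqo1, Gpx1 and Sod2) between -0.35 and 0.02. No test was made of this, and several of these differences are within their SE. Hmox1 (-0.31) and Gclc (0.38) had no window and are in neither group. Letters outside the windows were not searched, so a gene without a match may carry them elsewhere.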

How the data were processed

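RNA of each sample was amplified and labeled with Cy3 by the authors, hybridized to Agilent mouse arrays that lay on 1 slide and read with Feature Extraction. Feature Extraction had subtracted background from the deposited intensity values on every array, with no normalization across arrays, and the authors' second table holds the same intensities rounded. The well-above-background and outlier marks came from the same deposited files.

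Here control spots (3671 per array) and outlier spots were removed, intensities were log2 transformed, spots of a probe were averaged, and the 35087 probes that at least 2 of the 4 arrays read well above background were quantile normalized. The study's methods drop probes with a flag they do not define, and this filter stood in for it. MOTS-c was compared with scrambled by limma 3.58.1 (R 4.3.3) with Benjamini-Hochberg adjustment over all probes (residual degrees of freedom 2, prior 2.64). Symbols of 32994 of 56605 gene probes came from the RefSeq gene table of GRCm38.p6. The array is annotated on another build, so no probe coordinates are given.

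Named were every member probe, pathway genes at an unadjusted p under 0.05 with at least 1.5-fold, and the 2 largest values each way of lists of at least 10 genes (1 each way for shorter lists). Second probes of Nfe2l3, Gss, Btrc, Ccs, Blvra and Csf1r, and single cell type markers, were named after their values were seen. The members and lists were chosen with earlier results of these data known. Marker levels are the log2 of the mean linear signal of a list's measured genes. Replicates are separate samples by the labels. The alternatives were another scaling, background correction or filter, the authors' rounded table, a trended limma fit, the methods' t-test, leaving out each array, and a gene's mean over its probes. The fit was tested on simulated data.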

Additional observations from a re-analysis of the deposited data

How the results depend on the processing

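Of the differences of the member probes under the alternatives, 112 kept their sign and their side of the adjusted threshold, and 10 turned in sign, none past that threshold. Under the 75th percentile shift Gclm was -0.020 and Sod2 -0.010 (log2), and under normexp Gclm was -0.047. With each array left out in turn, Nfe2l2 ranged from -0.0064 to 0.15, Keap1 from -0.29 to 0.015, Gclm from -0.064 to 0.072, the Txnrd1 probe A_55_P2740574 from -0.030 to 0.15 and Gpx1 from -0.41 to 0.27. The turned signs among these were Gclm without scrambled replicate 1 (-0.019), Gpx1 without scrambled replicate 2 (0.22) or MOTS-c replicate 3, Keap1 without MOTS-c replicate 3, and Nfe2l2, Gclm and that Txnrd1 probe without MOTS-c replicate 2. Of the alternatives, only the methods' t-test called any probe at an adjusted p under 0.05 (1 probe, not a member). The count of all probes at an unadjusted p under 0.05 with at least 1.5-fold was 1239, with 31.2% of them higher with MOTS-c. It was 406 under normexp, with 18.5% higher, 458 by the methods' t-test, and 1374 to 3264 when each array was left out, the highest without MOTS-c replicate 2. The pathway count of 3 was 0 by the methods' t-test and 1 to 6 with each array left out. With a single array in a group, that array is assumed to vary like the other group. The causes were not tested. No paired analysis was made, because the labels do not say whether any samples form pairs, and replicate numbers were not taken to mark them.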
